A study of Sus scrofa with 75 samples.

Results

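MicroRNAs (miRNAs) in peripheral blood mononuclear cells (PBMC) of control pigs were compared between day 56 and day 20 of age. The libraries were chosen by the column names of the miRNA count table, which give treatment, pig and age. Control pigs 1 to 8 each had 1 library at both ages, which gave 16 libraries among the 39 miRNA libraries and the 75 samples of the series. Control pigs received no soil and were reared in farrowing crates. From weaning at day 20 until day 56, when the nursery phase ended, pigs of both treatments were kept without soil. The comparison thus addresses how blood cell miRNAs differ between weaning and the end of the nursery in pigs that never had soil. Pigs of the topsoil treatment had topsoil from day 4 to day 20. Their 15 libraries, from 5 pigs, and the 8 control libraries of day 11 entered the filter and the fit together with the 16, and give values set beside those of the control pigs. With the 16 control libraries alone, fitted without RNA quality (RQI) as a term, 10 miRNAs were higher and 10 lower. Of these, 9 and 10 were among the 26 called in the fit of all 39. PBMC were isolated from blood on a density gradient, and the pigs sampled were of median weight in their litters.

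The sample characteristics of the submitters and the column names did not give the same groups. Over the 16 libraries, both gave the same treatment in 10, the same age in 4 and both in 1. Treatment and age were taken from the column names throughout. With those of the sample characteristics for all 39 libraries, and without pig as a block, edgeR called 0 of 209 miRNAs between the ages. In that fit 9 had an unadjusted p under 0.05.

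A miRNA is a single strand of RNA cut from a hairpin precursor that guides Argonaute proteins to messenger RNAs and lowers their stability and translation. Target choice rests mostly on the seed, bases 2 to 8 of the mature strand, so miRNAs with the same seed form a family with overlapping targets. Blood cell types carry distinct sets of miRNAs: miR-486, miR-451 and miR-144 are made in red cell precursors and kept in red cells, miR-150 and miR-181 are abundant in lymphocytes, miR-142 is made in all leukocytes and miR-223 in myeloid cells.

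Summed over all entries, the total count of a library was between 9642881 and 13658482 at day 20 (median 12223385) and between 2570910 and 13678837 at day 56 (median 11422908). With 1 entry kept per mature miRNA, the smallest library, pig 7 at day 56, held 1634831 counts and the other 7 of that age held 7471418 to 10518896. On average, though not in every library, miR-486 took the largest share of these counts, at 78.6% ± 12.5 (SD, n = 8) at day 20 and 46.4% ± 21.5 (n = 8) at day 56. At day 20 the share was 65.5% in the lowest library, 77.7% at the median and 95.1% in the highest, and at day 56 it was 18.5%, 42.3% and 75.3%. The ranges overlapped, since pigs 5 and 6 at day 56 were above the lowest library of day 20.

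Within pigs, the share of miR-486 was lower at day 56 in 7 of 8 and higher in pig 6. The change was -13.3 percentage points in pig 1, -58.94 in pig 2, -27.98 in pig 3, -62.59 in pig 4, -14.95 in pig 5, 8.444 in pig 6, -53.68 in pig 7 and -34.75 in pig 8. The mean change was -32.22 points (SD 25.16), and the exact sign-flip permutation test over the 8 pigs gave a two-sided p of 0.01562, where the smallest possible is 0.0078125. The lowest share, 18.48% in pig 7 at day 56, had a 95% Wilson interval of 18.42% to 18.54%, and the highest, 95.09% in pig 4 at day 20, one of 95.08% to 95.10%. Such intervals cover counting error only, because PCR reads without molecular identifiers are not independent molecules. In bulk PBMC, fewer cells of a type and less RNA per cell cannot be told apart.

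**Figure D1:**
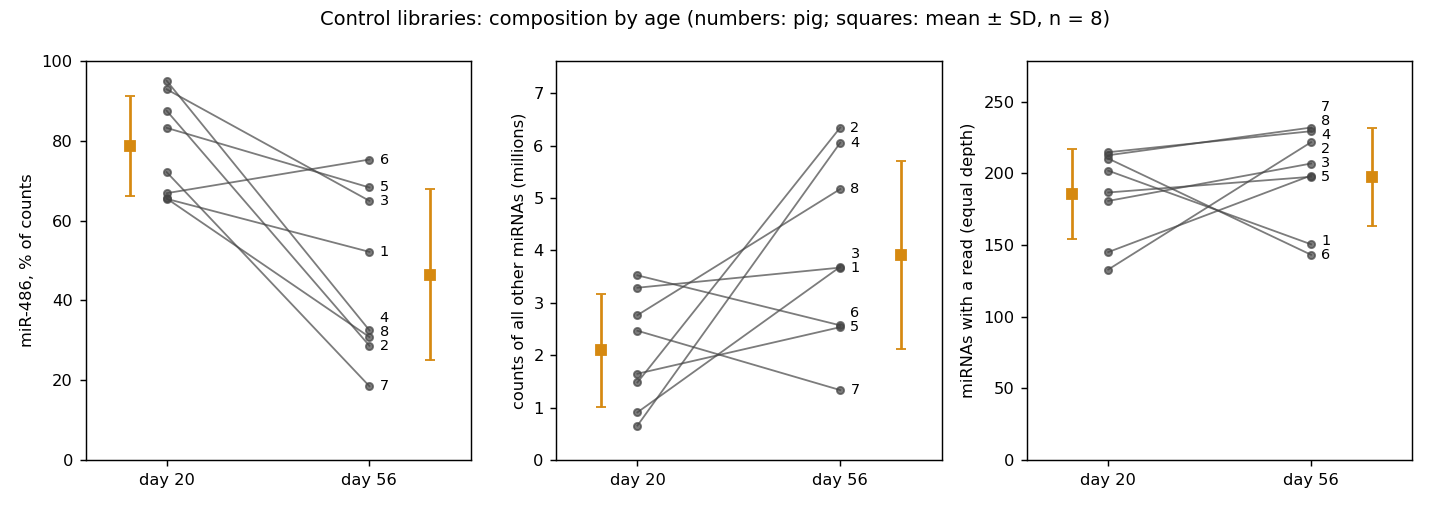
Each line joins the libraries of 1 control pig, labelled by its number, at day 20 and day 56. The panels show the share of counts from miR-486 in percent, the counts of all other miRNAs (in units of 1000000) and the number of miRNAs with a read after thinning to 1634831 reads. Squares with bars are the mean ± SD of 8 libraries. The share was lower at day 56 in every pig but pig 6.

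The counts left for all other miRNAs were 655146 to 3522677 at day 20 (median 2055173) and 1332667 to 6343113 at day 56 (median 3678138). After thinning every library to 1634831 reads, 185.6 ± 31.4 miRNAs had a read at day 20 and 197.5 ± 33.9 at day 56 (SD, n = 8 each). The mean change within pigs was 11.85 miRNAs (SD 50.95), higher in 6 of 8 pigs, with an exact sign-flip p of 0.5234, so no difference in the number of miRNAs was shown. Before thinning, 4 libraries had a read on fewer than 160 miRNAs: pig 3 (156) and pig 4 (141) at day 20, and pig 1 (156) and pig 6 (149) at day 56. Pigs 3 and 4 at day 20 also had the lowest counts of other miRNAs of the 16 libraries (907823 and 655146), while pigs 1 and 6 at day 56 had 3670475 and 2568386. With only reads other than miR-486 thinned, to 655146 in each library, the 4 had a read on at most 153.7 miRNAs and the other 12 on 198.4 to 219.8. The part of these 4 libraries in the results was measured by leaving them out.

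Of 209 miRNAs tested, 26 (12.4%) changed between day 20 and day 56 in control pigs at an adjusted p under 0.10, with 12 higher at day 56 (5.74%) and 14 lower (6.7%). The 5 higher miRNAs with the smallest p were miR-92b-3p, miR-150, miR-181a, miR-146a-5p and miR-181b, of which 3 are of the lymphocyte list, where the other 4 tested did not pass. All 3 erythroid miRNAs were lower, together with miR-148a-3p and 3 members of the miR-17-92 cluster. The median log2 change over the 209 miRNAs was -0.03, and 42 had an unadjusted p under 0.05. The log2 changes of the 26 had an absolute size of at least 0.70. For 5 of the 209 miRNAs (2.39%), the ranges of the 8 libraries at each age did not overlap: miR-451, miR-148a-3p, miR-9858-5p, miR-19a and miR-17-5p, all lower at day 56.

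These levels are relative. They are given as scaled CPM, the CPM of a library size set by the upper quartile (CPM, counts per 1000000), so that the miRNA at the 75% quantile stands at 107 in every library and miR-486 can exceed 1000000. Scaling by total counts, of which miR-486 is the largest part, moved the median log2 change of all 209 miRNAs to 0.89 and left 7 higher and 0 lower, 100% higher against 46.2%. The 7 were among the 12. Scaling by the total without miR-486 moved the median to -0.28 and gave 5 higher and 24 lower, 17.2% higher, which included 5 of the 12 and all 14. The sign of each of the 26 was the same under these scalings, except for miR-15b (0.19) and miR-30a-5p (0.27) with total counts.

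Single pigs also moved the counts. Without pig 7 there were 5 higher and 8 lower, without pig 2 there were 6 and 8, and without pig 6 there were 12 and 9. Leaving out only the day 56 library of pig 7, the smallest one, gave 5 higher and 10 lower, of which 5 and 8 were among the 26. Leaving out the 4 libraries with few miRNAs gave 7 and 7, all among the 26.

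The erythroid miRNAs were lower at day 56 in all 3 members tested (0 higher, 3 lower, median log2 change -2.59), against 6.7% lower and a median of -0.03 over all miRNAs. miR-451, which is matured by Argonaute 2 without Dicer, was at 305 scaled CPM in the lowest library, 795 at the median and 2364 in the highest at day 20, and at 72.0, 151 and 275 at day 56. Every library of day 56 was below every library of day 20. The log2 change was -2.59 (SE 0.43, adjusted p 8.99e-05), lower in 8 of 8 pigs. miR-144, transcribed with miR-451, ran from 4.94 scaled CPM through 24.6 to 56.7 at day 20 and from 0 through 3.18 to 7.63 at day 56, where 2 libraries had no read. It fell by 3.83 on the log2 scale (SE 0.84, adjusted p 0.00228) and was lower in 8 of 8 pigs, although the ranges overlapped at the low end of day 20.

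miR-486 itself was between 342567 and 3750950 scaled CPM at day 20 (median 554993) and between 46657 and 808878 at day 56 (median 229704). Its log2 change was -2.07 (SE 0.68, adjusted p 0.0509), lower in 7 of 8 pigs, with overlapping ranges. The summed erythroid level was 343145 to 3751510 scaled CPM at day 20 and 46759 to 808953 at day 56, and it was almost all miR-486. All 3 members kept a negative sign under each scaling, and with total counts none of the 3 passed the test. The miR-486 call was also lost without pig 2, 3, 4 or 7 in turn (adjusted p 0.164, 0.123, 0.134 and 0.149), without the day 56 library of pig 7 alone (0.145) and without the 4 libraries with few miRNAs (0.192). The log2 change of miR-486 in these fits was -1.89, -1.90, -1.54, -1.94, -1.85 and -1.75, in the same order. The calls of miR-451 and miR-144 were kept in 22 of 24 alternative settings, all but total counts and the labels of the sample characteristics. A density gradient removes most red cells, and the part of remaining red cells or their precursors in any other result was not tested. With miR-486 itself as a covariate, 7 miRNAs were higher and 15 lower, of which 5 and 7 were among the 26, and miR-451 and miR-144 were among those still lower.

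The mature sequences of the 3 erythroid miRNAs, whose seeds (in capitals) are all different, are shown because they define the list. They are given 5′ to 3′ as RefSeq annotates them on Sscrofa11.1, which the authors also used.
miR-451: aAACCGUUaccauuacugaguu
miR-144: uACAGUAUagaugauguac
miR-486: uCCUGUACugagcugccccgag
miR-451 lies at chr12:45088838-45088859 and miR-144 at chr12:45088968-45088986, 130 bp apart on the minus strand, in an intron of ERAL1 on the opposite strand. miR-486 lies at chr17:10758868-10758889 on the minus strand, in an intron of ANK1 and on its strand. ANK1 encodes ankyrin 1 of the red cell membrane skeleton.

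Of the lymphocyte miRNAs, 3 of 7 tested rose, none fell, and the other 4 did not pass the test (median log2 change 0.43). Over all 209 miRNAs, 5.74% were higher and 6.7% lower. miR-150, which represses MYB and marks mature T and B cells, was at 862, 1785 and 3243 scaled CPM (lowest, median, highest) at day 20 and at 2789, 4576 and 5432 at day 56. Only the lower end of day 56 reached into the day 20 range. The log2 change was 1.40 (SE 0.27, adjusted p 0.000451), higher in 8 of 8 pigs. miR-181a, which tunes the sensitivity of the T cell receptor, went from 20130, 33055 and 73764 to 55081, 72796 and 131795 scaled CPM. The highest day 20 pigs overlapped the lower libraries of day 56, and the level was higher at day 56 in 8 of 8 pigs (log2 change 1.14, SE 0.24, adjusted p 0.00133). miR-181b rose by 0.78 (SE 0.21, adjusted p 0.012), higher in 7 of 8 pigs, from a median of 2381 to 3471 scaled CPM.

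These 3 calls held under each scaling. With miR-486 as a covariate miR-181b was not called (0.64, adjusted p 0.125), while miR-150 and miR-181a were, and miR-342 was called higher (1.32). The summed level of the list was 22317 to 80828 scaled CPM at day 20 and 61488 to 144813 at day 56, higher in 8 of 8 pigs, and miR-181a was the most abundant member. In the fit without the covariate miR-342 had a log2 change of 0.43 (adjusted p 0.642). The remaining members of the miR-181 family had negative values, at -0.60 for miR-181c (SE 0.35, adjusted p 0.372) and -0.67 for miR-181d-5p (SE 0.31, adjusted p 0.212), and these turned positive, to 0.32 and 0.20, with total counts. miR-181d-5p was called lower with the total without miR-486, with DESeq2 and without pig 5.

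The miR-181 family shares the seed ACAUUCA, and the 4 sequences are shown because members of this 1 seed family had fitted changes of both signs.
miR-181a: aACAUUCAacgcugucggugaguu
miR-181b: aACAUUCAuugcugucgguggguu
miR-181c: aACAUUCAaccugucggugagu
miR-181d-5p: aACAUUCAuuguugucgguggguu
Compared without gaps, miR-181b and miR-181d-5p differed at 1 base and miR-181a and miR-181b at 3. How reads were assigned between such members was not tested, so the separate counts of miR-181b and miR-181d-5p are uncertain. miR-181a and miR-181b lie together at 2 loci, 173 bp apart on chromosome 10 and 1865 bp apart on chromosome 1, where they sit in an intron of NR6A1 on the opposite strand. miR-181c and miR-181d-5p lie elsewhere, at chr2:65280001-65280022 and chr2:65279821-65279844 on the minus strand.

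Among leukocyte and myeloid miRNAs, 1 of 3 rose, and with 5.74% of all miRNAs higher a list of 3 says little. miR-142-5p was at 1156, 1672 and 2314 scaled CPM at day 20 and at 1420, 3092 and 6856 at day 56, higher in 7 of 8 pigs (log2 change 0.94, SE 0.28, adjusted p 0.0387). This call was kept in 18 of 24 alternative settings and lost with the total without miR-486 (adjusted p 0.131), without pig 7 (0.156) or its day 56 library (0.131), without the 4 libraries with few miRNAs (0.287), with miR-486 as a covariate (0.273) and with the labels of the sample characteristics. In all of the fits that lost it but the last, the log2 change was 0.64 to 0.79. The other arm of the same hairpin, miR-142-3p, had a log2 change of -0.19 (adjusted p 0.892), and miR-223, the myeloid miRNA, one of -0.05 (adjusted p 0.965). The myeloid marker thus did not pass the test, and its sign turned positive under several settings. The median of the list was -0.05, while its summed level was higher at day 56 in 7 of 8 pigs, mostly as miR-142-5p.

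Of 10 inflammation miRNAs tested, 1 rose and none fell, with 8 positive and 2 negative values (median 0.28) and 5.74% of all miRNAs higher. Of the 8, 3 are miR-9, miR-9-1 and miR-9-2, which have identical counts and are 1 measurement, so that 6 of 8 separate measurements were positive. miR-146a-5p, which NF-κB induces and which targets TRAF6 and IRAK1, was at 191, 339 and 711 scaled CPM at day 20 and at 241, 779 and 1321 at day 56. The ranges overlapped broadly, and the call was kept without each of the 8 pigs in turn. The level was higher in 7 of 8 pigs (log2 change 1.10, SE 0.26, adjusted p 0.00492). miR-21-5p, the most abundant of the list, had a log2 change of 0.46 (adjusted p 0.263), and miR-125b one of -0.67 (adjusted p 0.585). Scaling without miR-486 gave 5 positive and 5 negative values over the 10 entries. Leaving out pig 1, pig 6 or the 4 libraries with few miRNAs gave the same numbers. miR-146a-5p was still higher in each of these, and a mean of at least 10 reads called miR-21-5p higher as well.

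**Figure D2:**
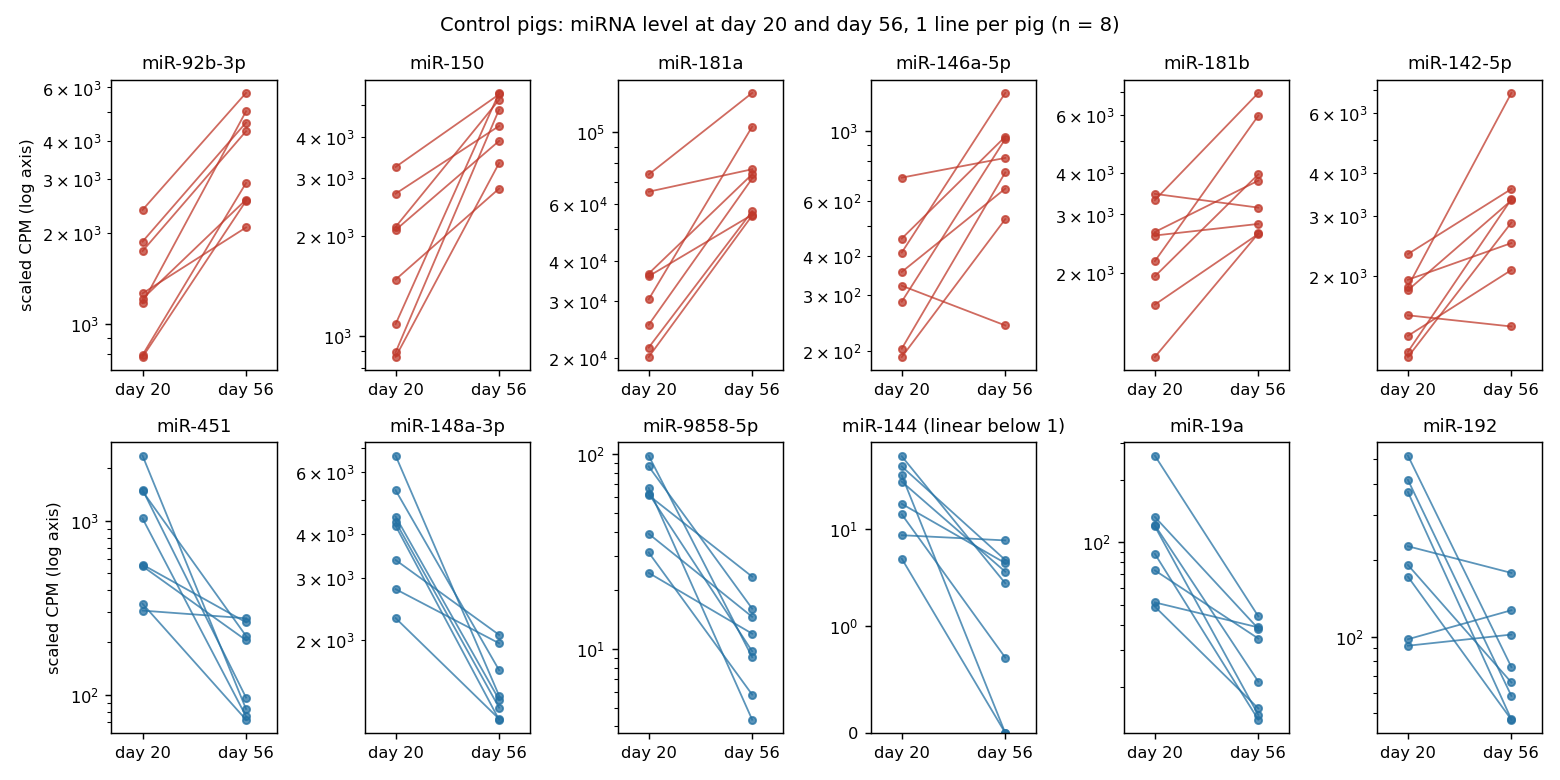
Levels in scaled CPM on a log axis (linear below 1 for miR-144) for the 6 higher and the 6 lower miRNAs with the smallest p, with 1 line per control pig from day 20 to day 56. For miR-92b-3p, miR-150 and miR-181a the lines run upward in 8 of 8 pigs, and for miR-451, miR-148a-3p, miR-9858-5p, miR-144 and miR-19a they run downward in 8 of 8.

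The list of the miR-17-92 cluster and its paralogs, known for promoting proliferation in lymphocyte precursors, also holds miR-92b-3p, which has the seed of miR-92a but lies outside the clusters. Of 11 tested, 2 rose (miR-92b-3p and miR-363) and 3 fell (miR-19a, miR-17-5p and miR-19b), against 5.74% and 6.7% of all miRNAs, with 3 positive and 8 negative values and a median of -0.97. Among the 10 members in a cluster only miR-363 rose. The summed level of the 11 was higher at day 56 in 8 of 8 pigs, from a median of 5624 to 7494 scaled CPM, but without miR-92b-3p it was lower in 7 of 8, from 4477 to 3798. miR-92b-3p was at 780, 1237 and 2375 scaled CPM at day 20 and at 2079, 3609 and 5757 at day 56, with little overlap. It had the smallest p of all 209 miRNAs (log2 change 1.44, SE 0.22, adjusted p 6.28e-05, higher in 8 of 8 pigs). miR-363 rose by 0.80 (SE 0.27, adjusted p 0.0512, 7 of 8 pigs), from a median of 112 to 201 scaled CPM. Without the day 56 library of pig 7, miR-363 was not called (0.50, adjusted p 0.267). Nor was it with miR-486 as a covariate (0.16, adjusted p 0.836), and 11 of 24 alternative settings kept the call.

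miR-19a was at 48.9, 104 and 262 scaled CPM at day 20 and at 13.9, 27.7 and 43.9 at day 56, so that the ranges were separate. Its log2 change was -1.80 (SE 0.41, adjusted p 0.00273), lower in 8 of 8 pigs. miR-17-5p went from 37.2, 48.6 and 83.6 to 15.5, 25.98 and 32.8 scaled CPM, again without overlap (log2 change -1.14, SE 0.35, adjusted p 0.0407). miR-19b fell by 0.97 on the log2 scale (SE 0.32, adjusted p 0.0509, lower in 7 of 8 pigs), from a median of 622 to 300. With total counts none of the 3 passed the test, and the log2 change was -0.79 for miR-19a, -0.22 for miR-17-5p and -0.00026 for miR-19b, so the changes of the last 2 depend on the scaling. The call of miR-17-5p was also lost without pig 7 (adjusted p 0.102), without its day 56 library (0.125) and without the 4 libraries with few miRNAs (0.30). That of miR-19b was lost as well without pig 2, 4, 6 or 7 in turn, without the day 56 library of pig 7 and with miR-486 as a covariate. In the fits of these last losses, the log2 change was -1.05 to -0.92 for miR-17-5p and -0.95 to -0.81 for miR-19b.

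Position and seed did not give the same grouping. miR-17-5p, miR-19a, miR-19b and miR-92a lie within 1 cluster on the plus strand of chromosome 11, from chr11:60734665-60734687 (miR-17-5p) to chr11:60735405-60735426 (miR-92a). Of this cluster, miR-92a had a log2 change of -0.16 (adjusted p 0.793), miR-20a-5p one of -0.36 (adjusted p 0.724) and miR-18a one of -2.41 with a large error (SE 1.48, adjusted p 0.398). miR-17-3p had 450 reads in all 16 libraries and its fold is not given. miR-363 lies at chrX:110113558-110113580 on the minus strand, 304 bp from the second copy of miR-19b and 167 bp from that of miR-92a. miR-92b-3p stands alone at chr4:94624293-94624314 on the minus strand, outside any gene.

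The sequences show which of these share a seed. miR-92b-3p, miR-92a and miR-363 share AUUGCAC, miR-19a and miR-19b share GUGCAAA, and miR-17-5p has AAAGUGC.
miR-92b-3p: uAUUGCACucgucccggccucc
miR-92a: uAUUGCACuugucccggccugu
miR-363: aAUUGCACgguauccaucuguaa
miR-19a: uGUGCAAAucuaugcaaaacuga
miR-19b: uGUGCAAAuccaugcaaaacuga
miR-17-5p: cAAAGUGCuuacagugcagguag
miR-92a and miR-92b-3p differed at 3 bases and miR-19a and miR-19b at 1, and miR-17-5p differed from miR-20b and from miR-106a at 1. The separate counts of the pairs with 1 difference are uncertain, as read assignment was not tested. Over the 209 tested miRNAs, 179 had an annotated mature position, and they formed 134 seed groups, of which 26 had 2 or more members. Only 3 of the groups held 2 or more calls, those of miR-181a, miR-92b-3p and miR-19a, and in each of these both calls had the same direction.

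All 4 tested members of the miR-148 and miR-152 family had negative values (median -1.04), and 2 of them, the arms of 1 hairpin, fell, against 6.7% of all miRNAs. miR-148a-3p, which targets DNMT1, was at 2309, 4278 and 6676 scaled CPM at day 20 and at 1189, 1374 and 2070 at day 56. Every library of day 56 was below every library of day 20 (log2 change -1.43, SE 0.25, adjusted p 0.000214, lower in 8 of 8 pigs). The call was kept in 22 of 24 alternative settings, and with total counts it was lost (-0.44, adjusted p 0.662). The other arm of its hairpin, miR-148a-5p, fell by 1.10 (SE 0.38, adjusted p 0.061), from a median of 31.5 to 13.7 scaled CPM. The arms start 38 bp apart, with miR-148a-3p at chr18:46415256-46415277 on the plus strand. miR-148b-3p, which differs from miR-148a-3p at 2 bases, had a log2 change of -0.42 (adjusted p 0.308). DESeq2 and the total without miR-486 called miR-148b-3p lower. The summed level of the family was lower in 8 of 8 pigs, from a median of 4607 to 1672, and with total counts 2 of the 4 values were positive.

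In the miR-15/16 family, whose members restrain the cell cycle, 1 of 4 tested fell, against 6.7% of all miRNAs. This single call was kept in 9 of 24 alternative settings. miR-15b had a log2 change of -0.70 (SE 0.26, adjusted p 0.0919) and was lower in 6 of 8 pigs, from a median of 127 to 79.6 scaled CPM. miR-16, encoded 145 bp away in the same intron of SMC4 and at a second locus on chromosome 11, had a log2 change of -0.55 (adjusted p 0.212). With total counts all 4 values were positive, so the sign of this family depends on the scaling.

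In the miR-30 family, 1 of 10 tested fell, near the 6.7% of all miRNAs, so the count says nothing particular of the family. miR-30a-5p was at 642, 887 and 1716 scaled CPM at day 20 and at 252, 545 and 1114 at day 56, with overlap (log2 change -0.91, SE 0.29, adjusted p 0.0448, lower in 7 of 8 pigs). miR-30d, which differs from it at 1 base and was the most abundant member, had a log2 change of 0.12, miR-30e-5p one of -0.65 and miR-30a-3p, the other arm, one of -0.48. The family had 5 positive and 5 negative values (median -0.04), and with total counts all 10 were positive.

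miR-29a-3p, which targets collagens and interferon gamma, rose by 1.08 (SE 0.36, adjusted p 0.0512) and was higher in 8 of 8 pigs, from a median of 18.6 to 41.2 scaled CPM. It was the only call among 3 of its family tested, all with positive values (median 0.91, 5.74% of all miRNAs higher), and miR-29c had 0.91 (adjusted p 0.70). Of the miR-23/27/24 clusters, 1 of 7 rose, against 5.74% of all miRNAs. DESeq2 and a mean of at least 10 reads each gave 3 higher, every entry and no replicate block 2, and limma 1. There were 0 with either scaling by total counts, without pig 2, 5 or 7, without the day 56 library of pig 7, without the 4 libraries with few miRNAs, with miR-486 as a covariate and with the labels of the sample characteristics. miR-23a was at 17.7, 27.3 and 39.9 scaled CPM at day 20 and at 37.6, 55.1 and 67.1 at day 56, almost without overlap (log2 change 0.97, SE 0.30, adjusted p 0.0407, 8 of 8 pigs). miR-27a, 189 bp away on chromosome 2, had a log2 change of 0.62 (adjusted p 0.145), miR-24-3p one of 0.70 (adjusted p 0.271) and miR-27b-3p one of 0.30, and the median of the list was 0.62.

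Of the miR-99, miR-100, miR-125a and miR-10 families, 1 of 7 tested rose and none fell (median -0.14). Over all miRNAs 5.74% were higher and 12.4% changed in either direction, so 1 call says little of these families. miR-125a rose by 1.43 (SE 0.49, adjusted p 0.061), higher in 7 of 8 pigs, from a median of 25.6 to 64.7 scaled CPM with broad overlap. miR-99b, 640 bp from it, had a log2 change of 1.23 (adjusted p 0.243), and miR-10a-5p, the most abundant member, one of -0.19. In the miR-26 family edgeR called 0 of 3, 1 had an unadjusted p under 0.05 and all 3 values were positive (median 0.66). DESeq2, the control libraries only and every entry each gave 1 higher, a mean of at least 10 reads gave 2 and limma 0. In the fit used here the family had miR-26a at 0.66 (adjusted p 0.141, higher in 8 of 8 pigs) and miR-26b-5p at 0.35. For miR-221 and miR-222 edgeR called 0 of 3, 2 had an unadjusted p under 0.05 and all 3 values were positive (median 0.68), with miR-222 at 0.62 and miR-221-3p at 0.68. DESeq2, litter size by age, every entry, a mean of at least 10 reads and leaving out pig 1 or pig 8 each gave 1 higher, and limma 0. The signs in the miR-29, miR-26, miR-221 and miR-222 lists held under each scaling.

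Some abundant miRNAs did not pass the test. Over all miRNAs 12.4% were called, so 0 calls in lists of 2 to 12 say little. In the let-7 family, known from developmental timing, edgeR called 0 of 10 and none had an unadjusted p under 0.05, with 6 positive and 4 negative values and a median of 0.01. DESeq2 and limma also called none, and the total without miR-486 gave 2 lower. let-7f-5p and let-7i-5p were each at 0.01 (adjusted p 0.996), let-7a at -0.23 (adjusted p 0.70) and let-7c at -0.59 (adjusted p 0.271). All 10 were positive with total counts and all 10 negative without miR-486 in the total, so no direction can be given for the family. Of 12 abundant constitutive miRNAs edgeR called 0 and 2 had an unadjusted p under 0.05, with 6 positive and 6 negative values and a median of 0.04, among them miR-191 at 0.15, miR-423-5p at -0.50 and miR-22-3p at -0.54. DESeq2 called 2 lower and limma 0. The total without miR-486 gave 3 lower and 10 of 12 negative values, litter size by age or leaving out pig 8 gave 1 lower, and miR-486 as a covariate 1 higher and 1 lower. With total counts all 12 were positive and none was called. In the miR-183 cluster edgeR, DESeq2 and limma called 0 of 2 and neither had an unadjusted p under 0.05 (median -0.55), both positive with total counts. Its main member miR-182 was between 918 and 23649 scaled CPM at day 20 (log2 change -0.75, adjusted p 0.58), a wide spread between pigs.

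**Figure D3:**
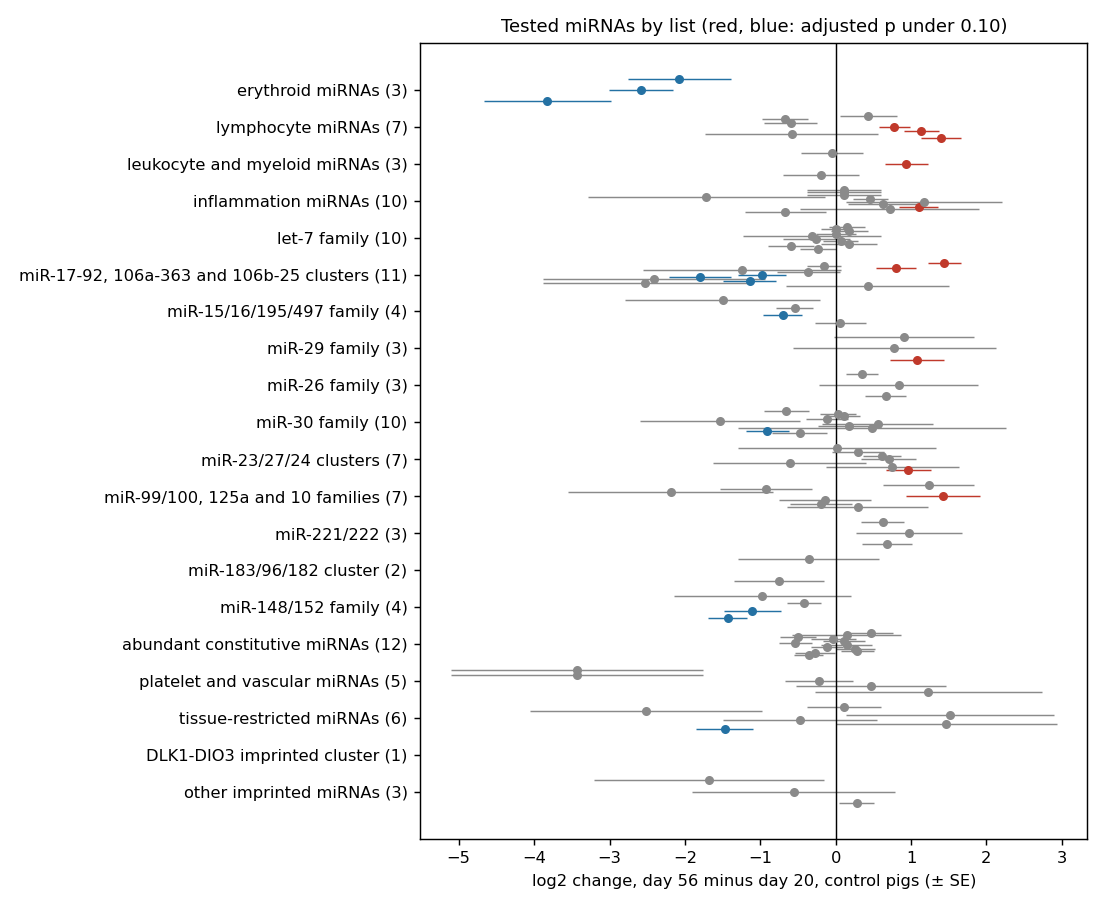
Fitted log2 change from day 20 to day 56 in control pigs, ± SE, for the tested members of 20 lists, with the number tested in brackets. Red points rose and blue points fell at an adjusted p under 0.10, and grey points did not pass. miR-127, whose SE was above 2, is not drawn. The 3 erythroid points are blue, and the lymphocyte list holds 3 red and 4 grey points.

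Of 14 platelet and vascular miRNAs, 5 were tested and 3 had no read in the 16 libraries. edgeR called 0 of the 5 (median -0.22, 12.4% of all miRNAs called), and miR-199a-3p and miR-199b-3p had an unadjusted p under 0.05. These 2 have identical counts, 91 reads in all, and are 1 measurement. DESeq2 and limma called this pair lower, as did edgeR without pig 8, without the day 56 library of pig 7 or with miR-486 as a covariate, and no other of the 5. The most abundant was miR-143-3p (log2 change -0.22), and the summed level had a median of 60.2 scaled CPM at day 20 and 39.3 at day 56. Of 25 tissue-restricted miRNAs of liver, muscle, nerve and epithelium, 11 had no read, among them miR-122-5p, miR-1, miR-206 and miR-124a. With the 148508362 reads of the 16 libraries pooled, 0 reads allow a level of up to 0.0202 CPM, not scaled. In the smallest library alone the bound is 1.84 CPM. These bounds cover counting error only. Of 6 tested, only miR-192 changed (median -0.18, 6.7% of all miRNAs lower). The DLK1-DIO3 imprinted cluster had no read for 17 of 22 and 61 for miR-127, the 1 tested. edgeR, DESeq2 and limma did not call it, nor any of 3 other imprinted miRNAs. DESeq2 gave no adjusted p for 21 of the 209 miRNAs, so a missing DESeq2 call can mean no test. By edgeR none of the 4 had an unadjusted p under 0.05. The 3 had 1 positive and 2 negative values (median -0.56, with the summed level higher at day 56 in 7 of 8 pigs), and miR-296-3p was at 0.28.

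miR-192, known from liver and gut and the most abundant of the tissue-restricted list, was at 92.02, 209 and 516 scaled CPM at day 20 and at 47.1, 70.9 and 178 at day 56. It was higher at day 56 in 2 pigs and lower in 6 (log2 change -1.47, SE 0.38, adjusted p 0.00915). The call was lost with miR-486 as a covariate (-1.21, adjusted p 0.15) and with total counts (-0.20). miR-9858-5p was at 24.6, 62.0 and 98.0 scaled CPM at day 20 and at 4.33, 10.8 and 23.5 at day 56, without overlap (log2 change -2.27, SE 0.43, adjusted p 0.000451, 8 of 8 pigs). Without the 4 libraries with few miRNAs its log2 change was -1.35 (adjusted p 0.102), and with miR-486 as a covariate -1.41 (0.125), neither of them a call, nor was -0.93 with total counts. miR-7139-5p, in an intron of E2F7, fell by 1.23 (SE 0.32, adjusted p 0.00915, 7 of 8 pigs), from a median of 454 to 166. It was not called with total counts (-0.057), with miR-486 as a covariate (-0.56, adjusted p 0.438) or without the 4 libraries with few miRNAs (-1.04, adjusted p 0.185). miR-9820-5p, in an intron of SIL1, had 343 reads in all and no read in 1 library of day 20 and 3 of day 56 (log2 change -4.26, SE 1.38, adjusted p 0.0507), so its size is poorly known.

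On the higher side, miR-7134-3p, in an intron of TNRC6B, which encodes an Argonaute partner, rose by 0.79 (SE 0.27, adjusted p 0.0623), in 6 of 8 pigs, from a median of 65.4 to 102 scaled CPM. miR-378 is encoded in an intron of PPARGC1B on chromosome 2, and on chromosome 12 in an intron of BCAS3 on the opposite strand. It rose by 0.82 (SE 0.30, adjusted p 0.0897), in 7 of 8 pigs, from a median of 40.7 to 81.6. With miR-486 as a covariate neither was called, at 0.31 for miR-7134-3p (adjusted p 0.655) and 0.29 for miR-378 (adjusted p 0.706). Many calls were lost in some of 24 alternative settings. miR-15b was kept in 9, miR-148a-5p, miR-378 and miR-7134-3p in 10, miR-363 in 11, miR-29a-3p in 13, miR-9820-5p in 14, miR-486, miR-125a and miR-23a in 15, miR-19b in 16, miR-30a-5p in 17, miR-142-5p in 18, miR-17-5p in 19, miR-9858-5p and miR-7139-5p in 20 and miR-192 in 21. By contrast, miR-92b-3p, miR-150, miR-181a and miR-146a-5p were kept in 23 of 24, all but the labels of the sample characteristics.

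The mature sequences of the further called miRNAs with a separate range of levels or with calls kept in 23 settings are as follows.
miR-150: uCUCCCAAcccuuguaccagug
miR-146a-5p: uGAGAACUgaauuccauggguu
miR-148a-3p: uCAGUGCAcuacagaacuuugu
miR-9858-5p: uUCCUGAGucggacugggcu
miR-150 lies at chr6:54580957-54580978 and miR-146a-5p at chr16:63044307-63044328, both on the minus strand and outside annotated genes, and miR-9858-5p at chr4:51211593-51211612 on the plus strand. All 26 called miRNAs had an annotated position.

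The 26 were called from these same pigs, so their directions in single pigs are a description. In pigs 2, 5, 7 and 8, all 12 higher and all 14 lower miRNAs had the fitted direction. The exceptions were in pig 1 (10 of 12 and 10 of 14), pig 3 (12 and 12), pig 4 (9 and 11) and pig 6 (9 and 13), the pigs that each had 1 of the 4 libraries with few miRNAs. Of the 12 higher miRNAs, 5 were higher in 8 of 8 pigs, 6 in 7 and 1 in 6, and of the 14 lower, 6 were lower in 8, 6 in 7 and 2 in 6.

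Topsoil pigs, fitted together with the control pigs, had 20 of 209 miRNAs called between day 20 and day 56 (9.57%), 13 higher and 7 lower. All 26 miRNAs called in control pigs had the same sign in topsoil pigs, and 10 were also called there. miR-150 had a log2 change of 1.31 (SE 0.35, adjusted p 0.0249) and miR-92b-3p one of 0.92 (SE 0.30, adjusted p 0.0589) in topsoil pigs. miR-486 had -4.05 there (SE 0.89, adjusted p 0.00489) against -2.07 in control pigs, and its share of counts went from 87.8% ± 8.66 to 34.4% ± 15.6 (SD, n = 5). miR-451 had -1.35 there (SE 0.54, adjusted p 0.131) against -2.59, and miR-7134-3p 1.87 (SE 0.37, adjusted p 0.00333) against 0.79.

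The difference between treatments in the change from day 20 to day 56 was itself tested, and edgeR called 0 of 209 miRNAs. The smallest adjusted p was 0.189 and 24 had an unadjusted p under 0.05, including miR-7134-3p (0.018) and miR-148a-3p (0.042) but not miR-451 (0.063) or miR-486 (0.067). Without pig 6, edgeR called 1, miR-424-3p. limma called 5, which, named after their values were seen, were miR-1285, miR-1306-5p, miR-424-3p, miR-628-5p and miR-99a-3p. DESeq2 called 9. They were miR-1285, miR-1306-5p and miR-99a-3p again, and miR-126-5p, miR-143-3p, miR-296-3p, miR-660, miR-504 and miR-532-3p. The log2 differences of miR-504 and miR-532-3p were 23.9 and 23.3, against -1.89 to 5.80 for the other 7, and cannot be read as sizes.

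**Figure D4:**
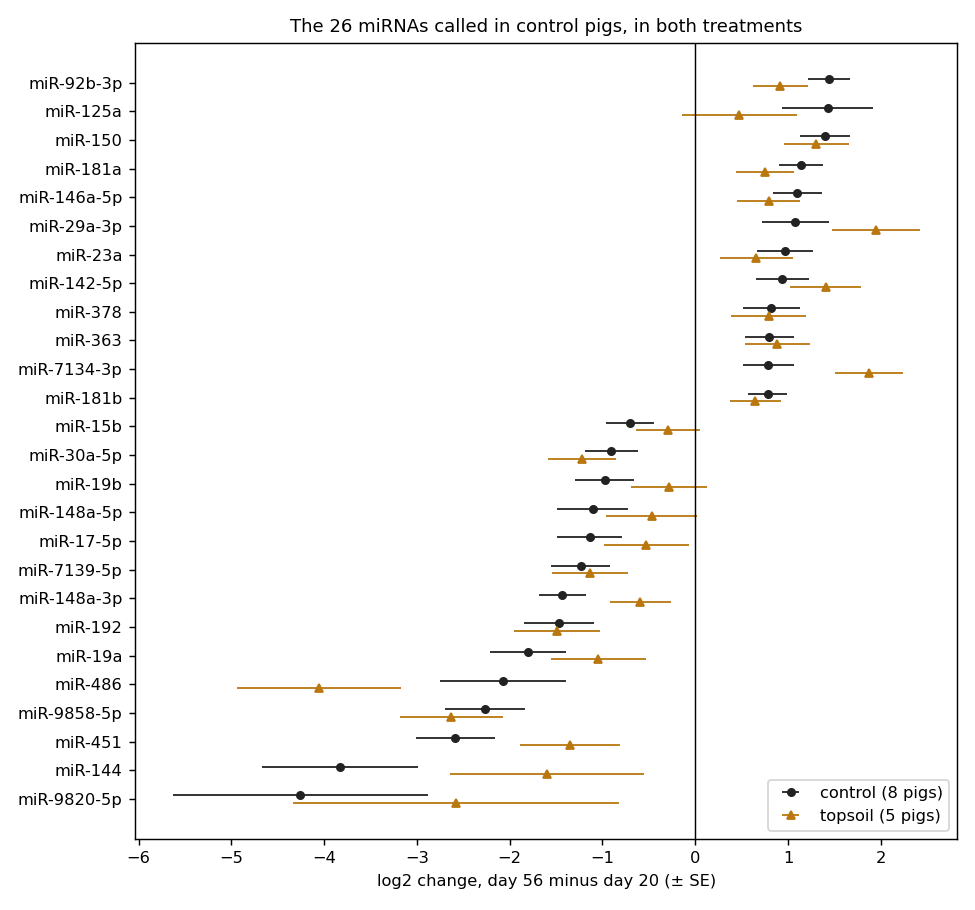
Log2 change from day 20 to day 56, ± SE, of the 26 miRNAs called in control pigs, for 8 control pigs (circles) and 5 topsoil pigs (triangles). All 26 pairs lie on the same side of 0, and edgeR called none of the differences between treatments.

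The step before weaning was set beside these changes for the control pigs. From day 11 to day 20, 11 of 209 miRNAs were called (5.26%), all higher at day 20. This step shares the day 20 libraries, so opposite signs in both steps are no separate result. Only miR-19a and miR-19b were called in both: miR-19a had a log2 change of 1.28 from day 11 to day 20 (adjusted p 0.0872) and -1.80 afterwards, and miR-19b one of 1.41 (adjusted p 0.0172) and then -0.97. The share of miR-486 was 88.6% ± 8.51 at day 11 (SD, n = 8).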

How the data were processed

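PBMC small RNA of control and topsoil pigs was sequenced at days 11, 20 and 56. The authors counted reads with miRDeep2 (version not given in the sources used here) on Sscrofa11.1 and deposited the counts of mature miRNAs without normalization. Of 479 entries, 1 per mature name was kept, the one with the largest total (457 names, 317 with a read). A read in at least 17 of 39 libraries and a mean above 2 reads left 209 miRNAs.

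Counts were scaled by the upper quartile (75%) and fitted in R 4.3.3 with edgeR 4.0.16 (quasi-likelihood F test) over all 39 libraries, with pig, age, treatment by age and RQI, the RNA quality value of each library given by the authors. Benjamini-Hochberg adjusted p-values under 0.10 were calls. Scaling and these terms follow the methods of the study, which used SAS and q-values by the method of Storey, also under 0.10. Its model also held sow parity, sex, litter size and litter size by age, with pig random. Terms that are constant within a pig are absorbed by the fixed block used here, and litter size by age was an alternative only. Scaled CPM were not corrected for pig or RQI. Single values per library were tested with the exact two-sided sign-flip test over 8 pigs (256 flips, scipy 1.17.1, Python 3.11.15). The code was tested on simulated counts.

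Pig is a true block, since each pig was sampled at every age. Taken about their group means, the day 20 and day 56 libraries of the same pig correlated at 0.041 on average (-0.31 to 0.34) and those of different pigs at 0.0096. Without the replicate block there were 13 higher and 14 lower miRNAs.

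Mature sequences and positions come from the RefSeq annotation of Sscrofa11.1, matched by mature miRNA identifier for 179 of 209 miRNAs. Hosts are genes whose span holds the miRNA.

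The lists and their members were chosen with earlier results of these data known. The named miRNAs are up to 15 calls with the smallest p in each direction, the 10 with the highest mean scaled CPM, and the most abundant and lowest-p members of each list. Partners of these by hairpin, cluster or seed (miR-181c, miR-181d-5p, miR-342, miR-223, miR-17-3p, miR-18a, miR-20a-5p, miR-148b-3p, miR-125b, miR-24-3p and miR-30a-3p) were named after their values were seen. An uncalled miRNA with a mean under 3 scaled CPM is given by reads only.

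Alternatives were TMM, total-count scaling with and without miR-486, DESeq2 1.42.0, limma 3.58.1 (pig random), other filters, no RQI, no replicate block, control libraries only, litter size by age, every entry, the groups of the sample characteristics and each pig left out. Leaving out the day 56 library of pig 7 or the 4 libraries with few miRNAs, miR-486 as a covariate and thinning without miR-486 were added after the data were seen. The limma fit used voom and also held sex and sow parity. With the control libraries only, the terms were pig and age without RQI, and with the sample characteristics there was no replicate block. DESeq2 gave no adjusted p for 21 of 209 miRNAs in the control comparison, and these count as not called. Messenger RNA and target prediction were not analysed here.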

Additional observations from a re-analysis of the deposited data

Results flagged for a closer look

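In 132 groups of 8 control libraries (the named miRNAs on log2(scaled CPM + 1) and the library totals, at each age), 5 had a highest or lowest library far from the other 7, where chance gives about 1 in 20. miR-7134-3p was at 280 scaled CPM in pig 7 at day 56, and the others at 66.5 to 121. miR-30e-5p was at 181 scaled CPM in the same library, and the others at 331 to 500. That library also had the smallest total, 1634831 counts against 7471418 to 10518896. miR-148a-5p was at 6.80 scaled CPM in pig 4 at day 20, and the others at 25.01 to 52.8. miR-27b-3p was at 3591 scaled CPM in pig 5 at day 20, and the others at 679 to 926. The part of depth in these values was not tested.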

How the results depend on the processing

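The numbers of miRNAs higher and lower (12 and 14) were 12 and 13 with TMM or without RQI, 13 and 14 with no replicate block, 10 and 10 with the control libraries only, 11 and 17 with litter size by age, 8 and 16 with limma and 8 and 13 with no filter (317 tested). They moved to 7 and 0 with total counts, 5 and 24 with the total without miR-486, 20 and 25 with DESeq2 (which included all 26), 22 and 12 with a mean of at least 10 reads (174 tested), 19 and 13 with every entry (230 tested), and 7 and 15 with miR-486 as a covariate. With the labels of the sample characteristics and no replicate block, 0 were called in either direction by edgeR, and 9 had an unadjusted p under 0.05. Without the day 56 library of pig 7 there were 5 and 10, and without the 4 libraries with few miRNAs 7 and 7. Leaving out each pig in turn gave 5 to 12 higher and 8 to 16 lower, the lowest numbers without pig 7 or pig 2. The 19 and 13 with every entry are numbers of entries, so a miRNA with several entries can count more than once. They included 12 of the 12 higher and 12 of the 14 lower calls. The number of differences between treatments was 0 to 1 without each pig, 9 with DESeq2 and 5 with limma. The share higher of all calls went from 46.2% to 64.7% with the mean of 10 reads, 59.4% with every entry, 33.3% with limma and 31.8% with the covariate. Fewer libraries enter the fits that leave some out, and the cause of the other changes was not tested.

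The change in the share of miR-486 kept its sign and passed 0.05 with every entry (-34.31 points) and without each pig (-38.03 to -27.88 points). The change in the number of miRNAs with a read was 1.375 with no thinning (exact p 0.9219), -2.82 with only reads other than miR-486 thinned, to 655146 (exact p 0.7578), and 0.8511 to 23.14 without each pig (exact sign-flip tests).

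Log2 changes of named miRNAs that turned sign are these. With TMM they were let-7f-5p -0.0068 and let-7i-5p -0.0016. With total counts, which moved the median of all miRNAs to 0.89, they were miR-30a-5p 0.27, miR-15b 0.19, let-7a 0.85, miR-182 0.31, miR-423-5p 0.41, miR-92a 0.82, miR-142-3p 0.62, let-7c 0.45, miR-16 0.42, miR-30e-5p 0.28, miR-10a-5p 0.85, miR-183 0.79, miR-22-3p 0.44, miR-143-3p 0.88, miR-181c 0.32, miR-181d-5p 0.20, miR-223 1.04, miR-20a-5p 0.58, miR-148b-3p 0.55, miR-125b 0.13 and miR-30a-3p 0.74. With the total without miR-486 they were let-7f-5p -0.26, miR-191 -0.082, let-7i-5p -0.25 and miR-30d -0.14. With DESeq2 it was let-7i-5p -0.0012, and with limma let-7i-5p -0.018 and miR-223 0.0042. With no filter it was let-7f-5p -0.0048, with a mean of at least 10 reads miR-92a 0.030, miR-143-3p 0.035 and miR-223 0.14, and with every entry miR-223 0.11. Without RQI they were let-7i-5p -0.062 and miR-223 0.021, with the control libraries only let-7i-5p -0.061 and miR-223 0.042, and with litter size by age let-7f-5p -0.00094, let-7i-5p -0.015, miR-183 0.27, miR-143-3p 0.051 and miR-223 0.13. Without the day 56 library of pig 7 they were let-7f-5p -0.10 and let-7i-5p -0.074, and without the 4 libraries with few miRNAs let-7a 0.016, miR-223 0.33 and miR-30a-3p 0.040. With miR-486 as a covariate, which removes its own change by construction (miR-486 0.30), they were let-7f-5p -0.24, miR-182 0.38, miR-92a 0.080, let-7c 0.012, miR-30d -0.081, miR-27b-3p -0.39, miR-10a-5p 0.89, miR-183 0.84, miR-143-3p 0.37 and miR-30a-3p 0.24. Without each pig in turn the ranges that crossed 0 were let-7f-5p -0.071 to 0.060, miR-191 -0.25 to 0.43, let-7i-5p -0.077 to 0.12, miR-183 -1.19 to 0.088, miR-223 -0.23 to 0.14, miR-10a-5p -0.67 to 0.15, miR-142-3p -0.32 to 0.026 and miR-143-3p -0.67 to 0.049.

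Treatment and age from the sample characteristics, which give both as the column names do in 1 of 16 libraries, were fitted without the replicate block. In that fit 24 of the 26 turned sign. The log2 changes that did were miR-92b-3p -0.80, miR-150 -0.61, miR-181a -0.49, miR-146a-5p -0.48, miR-181b -0.28, miR-142-5p -0.45, miR-23a -0.25, miR-29a-3p -0.56, miR-363 -0.15, miR-125a -0.71, miR-7134-3p -0.71, miR-378 -0.20, miR-451 0.38, miR-148a-3p 0.026, miR-9858-5p 0.098, miR-144 0.65, miR-192 0.098, miR-17-5p 0.055, miR-30a-5p 0.52, miR-9820-5p 0.87, miR-19b 0.11, miR-486 0.23, miR-148a-5p 0.44, miR-15b 0.16, let-7a 0.26, miR-191 -0.21, let-7i-5p -0.064, miR-182 0.47, miR-142-3p 0.081, miR-21-5p -0.30, let-7c 0.32, miR-29c -0.19, miR-26b-5p -0.35, miR-30d -0.16, miR-30e-5p 0.017, miR-27a -0.18, miR-99b -0.30, miR-222 -0.11, miR-221-3p -0.31, miR-183 1.25, miR-143-3p 0.18, miR-181c 0.27, miR-181d-5p 0.26, miR-342 -0.014, miR-18a 0.31, miR-148b-3p 0.033, miR-125b 0.70 and miR-30a-3p 0.37.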

Other observations

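The arms of 1 hairpin did not always have the same fitted sign. miR-142-5p rose by 0.94 on the log2 scale and miR-142-3p had -0.19, on hairpin arms that start 37 bp apart on chromosome 12, while both arms of miR-148a fell. The difference between arms was not tested.

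Some entries had identical counts in all 16 libraries and cannot be told apart by these counts: miR-199a-3p with miR-199b-3p, miR-9 with miR-9-1 and miR-9-2, and miR-339 with miR-339-5p and miR-4334-3p.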
